A study of Junco hyemalis with 48 samples.

Results

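The 292 gene models described here varied far more between pieces of one tail feather, the fourth rectrix, than between whole tail feathers of the same dark-eyed juncos, and their levels in fourth-rectrix libraries tended to be lower where a few very abundant genes took more of the counts. They were chosen from 20808 gene models by measured values. Each level is in CPM, the count divided by the library's total and scaled to a total of 1000000. Of the 10237 gene models with a mean of 5 to 1000 CPM over 48 libraries, 9925 also had a ratio of mean CPM between the second and sixth rectrices between 0.8 and its inverse. These 9925 were ranked by the standard deviation (SD) of log2(CPM + 1) over the 24 fourth-rectrix libraries minus the SD over the 24 whole-feather libraries. The first 300 were taken, and the 292 with a negative Pearson r, over the fourth-rectrix libraries, between log2(CPM + 1) and the percent of counts in the library's 20 most abundant genes are the members. The other 8 of the 300 had an r at or above 0. The spread in the fourth rectrix, its excess over whole feathers and this r therefore chose the members and are given as a description, with no test.

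The study sampled growing tail feathers of Junco hyemalis, a songbird with white outer and dark inner tail feathers, which were plucked and collected again 14 days into regrowth. The groups were the pigmented part of the fourth rectrix (R4 dark, 13 libraries from 7 birds), its apigmented part (R4 white, 11 libraries from 6 birds), the dark second rectrix (R2, 11 libraries from 6 birds) and the white sixth rectrix (R6, 13 libraries from 7 birds). All birds were plucked in the same way, and no other treatment, genotype, sex or age is used here. The R4 feathers were cut apart on a culture dish and the R2 and R6 feathers were frozen whole, so dissection and feather position cannot be told apart. The birds are called A to G. Bird C had no R4 white library and bird E had no R2 library. Left and right feathers of a bird are separate libraries of 1 animal, and tests were made over birds. RNA was extracted in 3 batches, the first with birds A and B, the second with C, D and E, and the third with F, G and the R4 white part of bird E.

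A growing feather is a tube of epidermis around a vascular pulp. Cells divide at its base and move towards the tip, where barb cells fill with keratins, harden and die, so transcripts of a few structural proteins can dominate the RNA of maturing tissue. Melanocytes near the base hand pigment granules to the barb cells of dark feathers, and white barbs receive none. Because a CPM value is a share of a library, a rise in a few dominant transcripts lowers the share left for all others. In a bulk sample, fewer cells of a type and less RNA per cell cannot be told apart. The deposited identifiers, a g and a number, come with no gene names or annotation here, so no member has a function attached, the tissue could not be checked against marker genes, and overlapping or near-identical gene models could not be recognised.

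Library totals were 12987431 to 53462453 counts. The 20 most abundant genes took 11.3% to 25.1% of the counts in R4 libraries and 13.3% to 16.0% in whole feathers. Over all 48 libraries 37 genes entered a library's top 20, 14 of them in every library, and none was a member. Members averaged 5.03 to 804 CPM, with a median of 27.1 CPM, and together made up 0.374% to 3.14% of R4 counts and 1.54% to 2.36% of whole-feather counts. All 292 passed the low-count filter of the tests below. In the 2 R4 libraries with the fewest member counts, 20 members (bird B, dark, left) and 19 members (bird A, white, left) had under 10 counts. The right R4 dark part of bird B had 9 such members. There were 3 each in the right R4 white part of bird A and the right R4 dark part of bird D. The left R4 white part of bird E had 2 and the right R4 white part of bird F had 1. Single values of such members are imprecise.

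The SD of log2(CPM + 1) of the members was 0.61 to 2.48 over R4 libraries, with a median of 0.89, and 0.12 to 1.56 over whole feathers, with a median of 0.25. The difference was 0.48 to 1.38, with a median of 0.61, whereas the median of all 9925 genes was 0.06, with 83.2% above 0. All 9925 genes had a median SD of 0.24 over R4 libraries and 0.17 over whole feathers. The median member therefore also varied more than the median gene in whole feathers. The last members inside the limit were g887, g10680 and g9661, with differences of 0.482, 0.482 and 0.481. The first genes outside it were g10262, g7889 and g13985, with 0.481, 0.480 and 0.478, so the limit falls on a continuum. The r with the top-20 percent ranged from -0.90 to -0.15, with a median of -0.71, and that of all 9925 genes had a median of -0.47, with 80.6% negative. The members nearest below 0 were g16902 (r = -0.15), g11983 (r = -0.19) and g21074 (r = -0.22). The nearest of the 8 genes left out were g9061 (r = 0.17), g20507 (r = 0.30) and g4112 (r = 0.69).

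The spread came from a minority of R4 libraries, in both colours. The member score, the mean log2(CPM + 1) of the 292 genes, was 2.72, 4.96 and 5.71 (lowest, median and highest) over R4 dark libraries and 2.85, 4.97 and 5.54 over R4 white libraries. In whole feathers it was 4.91, 5.002 and 5.23 in R2 and 4.82, 5.01 and 5.34 in R6. The 4 group medians therefore lay close together. Of the 24 R4 libraries, 8 lay below the whole-feather range, 13 within it and 3 above it.

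**Figure D1:**
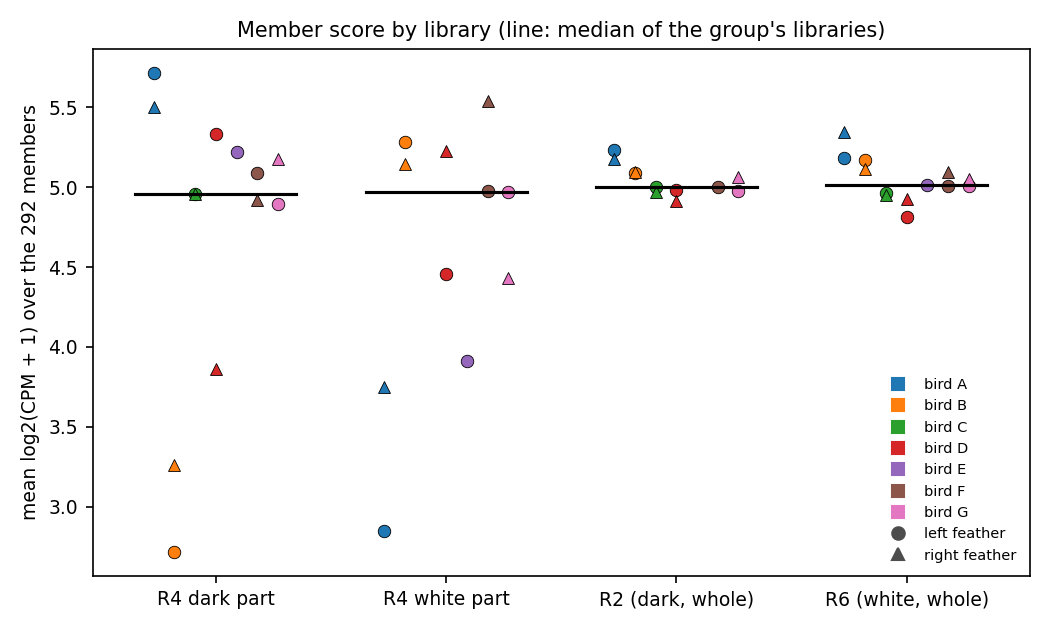
Member score (mean log2(CPM + 1) over the 292 members) of each of the 48 libraries by group, coloured by bird, with circles for left and triangles for right feathers and a line at each group's median. Whole feathers lie between 4.82 and 5.34, while R4 dark libraries reach down to 2.72 and R4 white libraries to 2.85, with group medians close together.

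The lowest score was that of the left R4 dark part of bird B (2.72), followed by the left R4 white part of bird A (2.85), the right R4 dark part of bird B (3.26), the right R4 white part of bird A (3.75), the right R4 dark part of bird D (3.86) and the left R4 white part of bird E (3.91). The next library, the right R4 white part of bird G, was at 4.43. These 6 lowest libraries thus held 3 dark and 3 white parts of 4 birds. Set against the mean of the same bird's own whole feathers, the median member's CPM + 1 was at 0.193 times that level in the left R4 dark part of bird B and at 0.201 times in the left R4 white part of bird A. The corresponding ratio, which lies closer to 1 than a ratio of CPM, was 0.283 and 0.385 in the right feathers of these birds, 0.489 in bird D and 0.465 in bird E. Bird E had only 1 whole-feather library, of R6, extracted in another batch than its R4 white part. In the 6 libraries 279 to 292 of the members lay below the bird's whole feathers, against 58.3% to 80.4% of all 9925 genes. In every one of the 6, 275 members were below the bird's own whole feathers, and 95 members were more than 1 log2 unit below. The 6 libraries were picked for a low member score and the members for their R4 spread. Both choices favour such counts, also against all genes, so they are a description.

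At the other end stood the left and right R4 dark parts of bird A (5.71 and 5.50) and the right R4 white part of bird F (5.54). There the median member's CPM + 1 was at 1.41, 1.21 and 1.47 times the bird's own whole-feather level. Bird A therefore had the highest score in its dark parts and low scores in its white parts.

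The member with the largest SD difference, g17929, had 0.220 and 4.07 CPM in the left and right R4 dark parts of bird B and 0.00 and 0.487 CPM in the left and right R4 white parts of bird A. It reached 61.5 CPM in the right R4 white part of bird F, and its lowest, median and highest levels in whole feathers were 11.5, 17.2 and 26.3 CPM. Its R4 range enclosed the whole-feather range on both sides. Second in rank, g18368 had 0.220, 25.1 and 61.7 CPM (lowest, median, highest) in R4 dark and 0.924, 18.9 and 52.7 CPM in R4 white libraries, against 23.3, 33.1 and 44.3 CPM in whole feathers. The more abundant g4139 had 17.7 and 23.3 CPM in the R4 dark parts of bird B and 15.4 and 43.9 CPM in the R4 white parts of bird A, against 125 to 317 CPM over all whole feathers. The remaining members of the first 10 ranks, g19443, g15844, g13739, g653, g4132, g1835 and g10557, had their lowest R4 value between 0.154 and 3.28 CPM and their lowest whole-feather value between 9.80 and 42.7 CPM. All of the first 10 had their lowest R4 value in a dark part of birds B or D or a white part of bird A.

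Members at both ends of the abundance range had the same kind of spread. Among the 3 most abundant members, g15502 had 144, 708 and 1768 CPM (lowest, median, highest) in R4 dark and 244, 709 and 1596 CPM in R4 white libraries, against 551, 808 and 1122 CPM in whole feathers. The other abundant members, g3368 and g18680, spanned 126 to 1294 and 123 to 974 CPM in R4 libraries, against 419 to 777 and 445 to 820 CPM in whole feathers. The 3 least abundant members, g13980, g9681 and g14189, spanned 0.211 to 9.43, 0.616 to 8.59 and 0.495 to 14.0 CPM in R4 libraries, against 3.15 to 8.53, 2.44 to 8.31 and 3.37 to 8.71 CPM in whole feathers.

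The members moved largely as 1 axis, which their choice by spread and by the sign of r over the R4 libraries favours. Over the 24 R4 libraries, the first principal component held 83.3% of their variance and the next 4.92%. The median r between members was 0.89, and 246 members had an r of at least 0.9 with the mean of the others. The axis was not limited to the members: 328 of the other genes that passed the level and ratio limits had an r of at least 0.9 with the member score. Over all 9925 genes, members included, the median r with the score in R4 libraries was 0.40. Over whole feathers, where the members varied less than in R4 libraries, the first component held 31.2%. The r with the other members had a median of 0.48 there and was positive for 261 members. The other genes had a median r of 0.09 with the member score. The 24 whole-feather libraries come from the same 7 birds as the R4 libraries. They are thus not independent of each other or of the libraries that chose the members.

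**Figure D2:**
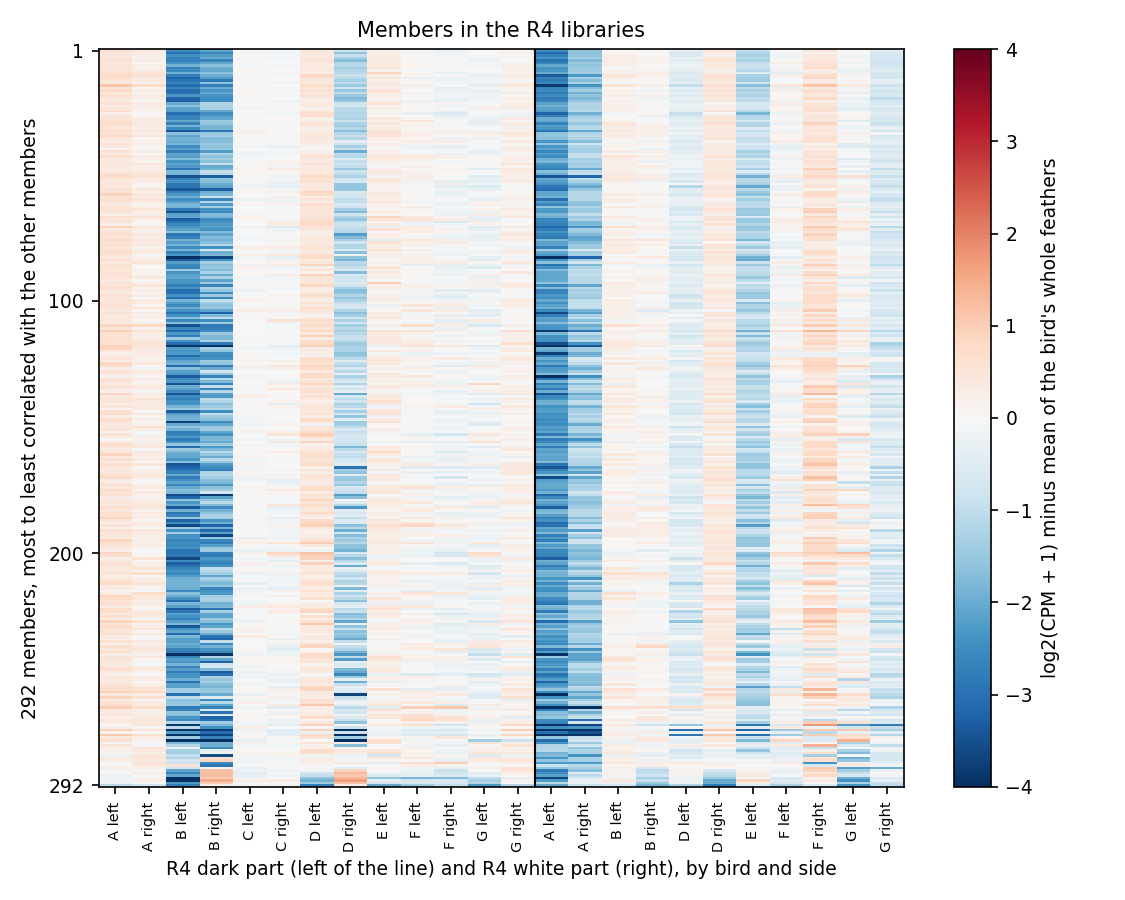
Log2(CPM + 1) of each member in each R4 library minus the mean of the same bird's whole feathers, with R4 dark libraries left and R4 white libraries right of the line and the members ordered by their correlation with the other members over R4 libraries. Nearly every member is low (blue) in the left R4 dark part of bird B and the left R4 white part of bird A, and a few members at the foot are high (red) in the right R4 dark parts of birds B and D.

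How far each member was below whole feathers was only partly the same from library to library. Across members, the deviations in pairs of the 6 lowest libraries correlated with r of 0.28 to 0.68 and a median of 0.41 over 15 pairs, with genes that are not independent replicates. The highest r, 0.68, was that between both R4 white parts of bird A. Parts of 1 bird were set against the same whole feathers, which can raise the r between them. A member near 0 CPM can fall no further, which ties its deviation to its abundance in the lowest libraries. The size of these effects was not tested. The left R4 dark part of bird B was closer to the left R4 white part of bird A (r = 0.62) than to the right R4 dark part of its own bird (r = 0.35), and by rank these were 0.57 and 0.43 (Spearman's rho). The right R4 dark part of bird B had an r of 0.60 with the right R4 dark part of bird D, but by rank it was as close to its own left part (rho of 0.44 and 0.43).

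The relation with transcript dominance was strong in R4 libraries of both colours. Over R4 dark libraries alone the median r of the members was -0.79 (13 libraries, 291 members negative), and over R4 white libraries alone it was -0.86 (11 libraries, all 292 negative), against 73.6% and 78.6% of all 9925 genes negative. With each bird's mean removed the median was -0.75 (all genes -0.57). Within extraction batches 1, 2 and 3 it was -0.74, -0.83 and -0.56 over 8, 7 and 9 libraries, against -0.60, -0.42 and -0.45 for all genes. Without the R4 white libraries of bird A, which were farthest from the median top-20 percent, it was -0.61, with 290 members negative, against -0.36 for all genes. Leaving out each bird in turn gave -0.56 (without bird A) to -0.82 (without bird B). All these values come from libraries that chose the members, and libraries share birds.

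The most negative r belonged to g17978 (-0.90), followed by g6836, g12131, g17929 and g4609. The first of these, g17978, had 9.93 and 14.7 CPM in the left and right R4 white parts of bird A, where the top 20 genes took 25.1% and 21.3% of counts. It had 12.05 CPM in the left R4 dark part of bird B, at 18.4%. In the R4 dark parts of bird A it had 51.5 and 44.3 CPM, at 11.7% and 11.98%.

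Individual libraries departed from the relation. The right R4 dark part of bird B had the third lowest score at 14.4% of counts in the top 20, which is within the whole-feather range. The left R4 white part of bird G had 18.6% in the top 20 and a score of 4.97, inside the whole-feather range. Against the median whole feather, the highest top-20 percent changes the share left for all other genes by -0.19 log2 units, while the median member stood at -2.32 log2 units against the bird's whole feathers in that library. The part of share loss in the members' levels was not tested.

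**Figure D3:**
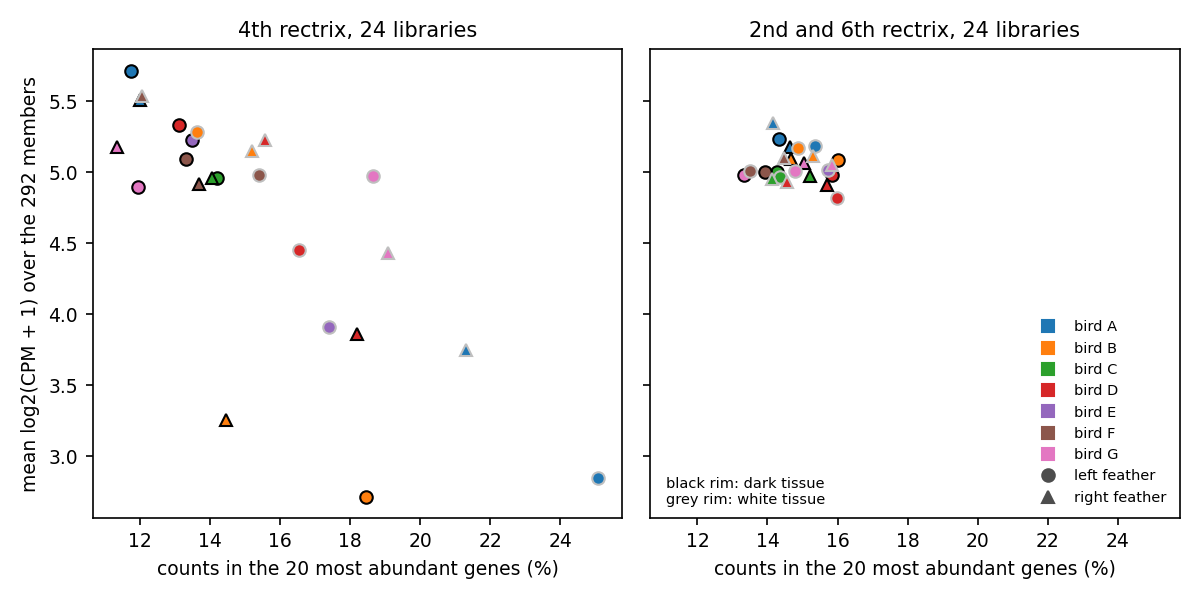
Member score against the percent of counts in the library's 20 most abundant genes for the 24 R4 libraries (left panel) and the 24 whole-feather libraries (right panel), coloured by bird, with circles for left and triangles for right feathers and a black or grey rim for dark or white tissue. In R4 the score tends to be lower where the percent is higher, with departures such as the right dark part of bird B (3.26 at 14.4%) and the left white part of bird G (4.97 at 18.6%), while whole feathers form a narrow cloud between 13.3% and 16.0%.

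Whole feathers did not choose the sign of the relation and the members' r there was near that of all genes. Over the 24 R2 and R6 libraries the r of the members ranged from -0.70 to 0.66, with a median of -0.10, and 190 members (65.1%) were negative, close to the 63.2% of all 9925 genes. Without bird D the median was 0.01 and 138 members were negative, against 59.4% of all genes, and without bird A 160 members were, against 61.5%. The most negative members were g14001, g8658 and g14189 (r of -0.70, -0.70 and -0.69) and the most positive g16916, g748 and g16225 (r of 0.66, 0.55 and 0.51), and all of these had an r below -0.5 in R4 libraries. The top-20 percent itself varied less in whole feathers, with an SD of 3.39 percentage points in R4 libraries and 0.778 in whole feathers, and the part of this narrower range in the weaker r was not tested.

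The choice was repeated on left libraries and measured on right libraries, which are other feathers of the same birds and not other animals. Very low parts recurred on both sides. The member score was 2.72 (left) and 3.26 (right) in R4 dark of bird B, and 2.85 and 3.75 in R4 white of bird A. In R4 dark of bird D it was low on the right only (5.33 left, 3.86 right). Genes chosen on left libraries are thus favoured to have a large R4 spread and a negative r on right libraries, and the reverse. The values below are therefore a description. The left libraries gave 294 members, 252 of them among the 292. Over the 11 right R4 libraries all 294 had a negative r, against 77.0% of the genes kept, and the median r was -0.60 against -0.41. All 294 had a larger SD in right R4 libraries than in right whole feathers, against 85.2% of the genes kept, with a median difference of 0.53 against 0.07. In the other direction the right libraries gave 283 members, 216 of them among the 292. Over left libraries 280 of these had a negative r, against 80.5% of the genes kept, with a median of -0.78 against -0.57.

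Both parts of 1 feather were sequenced for 11 R4 feathers, and neither colour had the higher score throughout. It was higher in the dark part in 6 feathers and lower in 5. The parts of bird E's feather were extracted in different batches. The dark part minus the white part was 2.87 and 1.75 in the left and right feathers of bird A and 1.31 in the left feather of bird E. It was -2.57 and -1.89 in the left and right feathers of bird B. Bird D had 0.88 on the left and -1.36 on the right, and birds F and G had 0.11 and -0.07 on the left and -0.62 and 0.74 on the right. The difference in top-20 percent had the opposite sign to the difference in score in 9 of the 11 feathers. A negative r over these same libraries chose the members, so this is a description, and the 11 feathers come from 6 birds. In the feathers with a very low part, the other part of the same feather was within or above the range of the bird's whole feathers. For bird E that range is 1 library.

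**Figure D4:**
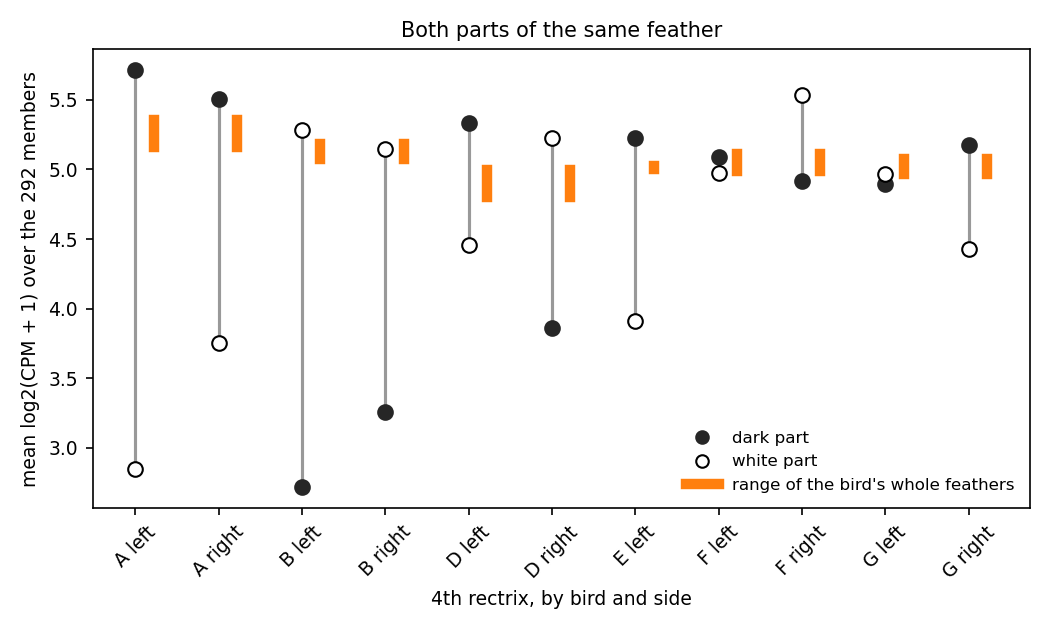
Member score of the dark part (filled) and the white part (open) of each of the 11 R4 feathers with both parts sequenced, with a bar for the range of the same bird's whole feathers. Bird E has 1 whole-feather library, so its bar is a single value. The dark part is far higher in both feathers of bird A and in bird E, and far lower in both feathers of bird B and in the right feather of bird D.

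Left and right feathers of a bird differed more in member score in R4 than in whole feathers. The choice of members by a larger SD in R4 than in whole feathers favours this, so the gaps are a description. The gap in score between sides had a median of 0.25 and a maximum of 1.47 over 6 birds in R4 dark, and a median of 0.56 and a maximum of 0.91 over 5 birds in R4 white. In R2 the maximum was 0.08 over 5 birds and in R6 it was 0.16 over 6 birds. No member was called between right and left over 22 pairs of libraries by edgeR's quasi-likelihood test with Benjamini-Hochberg adjustment (0 of 15225 genes, 0%). DESeq2 called none either (0% of all genes). At an unadjusted p under 0.05 edgeR had 0 members, against 3.24% of all genes, and DESeq2 had 1, against 2.81%. The gaps between sides in R4 enter the members' error in this test, so the absence of calls says little. The 22 pairs come from 6 birds, most of which enter with several feather groups, so they are not separate animals.

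The contrasts between groups were tested over birds, with left and right counts summed into 26 profiles and the bird as a block, by edgeR's quasi-likelihood test with Benjamini-Hochberg adjustment over 15844 genes and a threshold of 0.05. These contrasts share samples. The members were chosen for a large spread in R4, so their error in any contrast with R4 is large by choice. A difference between the R4 parts is part of that spread. The top-20 percent had a median of 13.5% in R4 dark and 16.5% in R4 white libraries, against 14.7% in R2 and 14.8% in R6. The negative r that chose the members thus favours folds in which R4 white is lower. Folds and calls of members between the R4 parts are given as a description.

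Dark and white parts of R4 showed no called member. Birds A and E were higher in the dark part, with a median member difference of 1.74 and 1.247 log2 units. In bird E the parts were extracted in different batches, so part and batch cannot be told apart there. Bird B was lower, with -1.96. Birds G, D and F had 0.32, 0.12 and -0.28. The median fold of the members was 0.24 on the log2 scale (all genes 0.00), and the mean over birds, 0.20, was smaller than the SD between birds of 1.30 (n = 6). edgeR called 0 of 292 members, against 0.738% of all genes. Of the members, 5 had an unadjusted p under 0.05, against 13.1% of all genes. DESeq2 called g6836 and g17875 higher in the dark part (log2 fold 0.66 each, adjusted p = 0.0298 and 0.0217), which were named after their values were seen (2.44% of all genes called by DESeq2).

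This outcome rested on the summed R4 dark counts of bird B. Without them, 24 members (8.22%) were called, all higher in the dark part, with a median fold of 0.49. Over all genes 8.05% were then called in either direction and 3.68% higher in the dark part. Without all of bird B, 43 members (14.7%) were called higher, against 12.6% of all genes in either direction and 5.29% higher. Such calls are favoured by the choice of the members and are a description. Right feathers alone gave a median of -0.28 and the fit without bird A gave -0.03, so the sign of the median also depended on single birds.

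With colours averaged, R4 parts against whole feathers gave member folds mostly below 0 and few calls. This contrast holds R4 white, for which the choice by r favours that sign. It also holds R4 dark, with a lower median top-20 percent than whole feathers, for which that choice favours the opposite sign. The net effect on the folds was not tested. The members' error is large by choice, so few calls do not show a small difference. The median member fold was -0.21 and 290 of 292 folds were below 0 (48.4% of all genes), but the members move together and are not independent of each other. Bird by bird the median was -0.93 in B, -0.58 in A, -0.17 in G, -0.03 in D and 0.10 in F, with a mean of -0.32 and an SD of 0.42 (n = 5). edgeR called 1 of 292 members, or 0.342%, against 0.404% of all genes. With the called one, 6 members had an unadjusted p under 0.05, against 9.52% of all genes.

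The R4 white part against R6 gave a median member fold of -0.34, with 291 folds below 0 (49.8% of all genes). The members move together, so these folds are not independent of each other, and the choice by r favours their sign. Bird A had a median difference of -1.47, bird E -1.03, bird G -0.31, bird D -0.05, bird B 0.06 and bird F 0.19. In bird E the R4 white part and R6 were extracted in different batches. edgeR called 1 member, against 0.467% of all genes, and 11 members had an unadjusted p under 0.05, against 14.1% of all genes. Without bird B it called 6 (2.05%), all lower in R4 white, against 3.88% of all genes in either direction and 1.79% lower. They were g16902, g17875, g8247, g11020, g13176 and g18645, with log2 folds between -1.02 and -0.51.

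The R4 dark part against R2 gave a median member fold of -0.08, and the sign turned to 0.15 when bird B's R4 dark counts were left out. Bird B had a median difference of -1.89, while birds C, F, G and D lay between -0.04 and -0.01 and bird A was at 0.32. edgeR called no member, against 0.126% of all genes. At an unadjusted p under 0.05 there was 1 member, g16902, against 5.83% of all genes, and DESeq2 called it (log2 fold -0.83, adjusted p = 0.0240, 0.49% of all genes called). R2 against R6 gave a median fold of -0.01 and no call by edgeR or DESeq2 (1.26% of all genes called by edgeR and 1.57% by DESeq2). At an unadjusted p under 0.05 edgeR had 0 members, against 7.9% of all genes. The rule itself had limited that ratio, and the members' R4 spread enters their error here too. The absence of calls therefore does not show equal levels in R2 and R6.

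The called member in the contrasts with whole feathers was g16902. Over birds it averaged 113 ± 55.1 CPM in R4 dark (SD, n = 7) and 105 ± 28.6 CPM in R4 white (n = 6), against 197 ± 40.2 CPM in R2 (n = 6) and 228 ± 37.0 CPM in R6 (n = 7). It fell in R4 parts against whole feathers by edgeR (log2 fold -0.96, SE 0.16, adjusted p = 0.00382) and was lower in 5 of 5 birds. In R4 white against R6 it also fell (log2 fold -1.08, SE 0.22, adjusted p = 0.0334) and was lower in 6 of 6 birds. The first call was lost without bird A (adjusted p = 0.0568), without bird D (0.0534) and in right feathers alone (0.930), and the second in 8 of 17 alternatives, among them the fits without birds A, D, F or G. By library it had 30.8, 98.2 and 317 CPM (lowest, median, highest) in R4 dark and 29.0, 92.0 and 176 CPM in R4 white, against 132, 219 and 310 CPM in whole feathers, so the ranges overlapped.

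Yet g16902 was also the member least like the others, with an r of -0.07 with the mean of the other members over R4 libraries. In all, 11 members had an r below 0.5, and they were singled out after their values were seen. With g16902, the members g11983, g17714, g1982, g11968, g14740 and g10049 formed a block of 7, with r among themselves of 0.54 to 0.95. The block has no sharp edge. Its member g10049 had an r of 0.82 with g4609 and 0.68 with g6424, which are described apart below. Within the block the r of g10049 went from 0.54 (g11983) to 0.90 (g11968). Members of this block were low in the left R4 dark part of bird B, like the rest, with a median of -2.68 log2 units against the bird's whole feathers. In the right R4 dark parts of birds B and D, where most members were low, all 7 were above the bird's whole feathers, with medians of 1.17 and 1.14. In the right R4 white parts of the same birds all 7 were below, with medians of -1.06 and -1.49. For example, g17714 had 1.16 CPM in the left and 178 CPM in the right R4 dark part of bird B, and 9.10 CPM in the left and 117 CPM in the right R4 dark part of bird D.

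A second small group was lower in the right than in the left R4 dark part of bird B, unlike the block. In the R4 dark parts of that bird g21074 had 316 CPM on the left and 28.4 CPM on the right, and g18186 had 2.64 and 0.106 CPM (r between them 0.73). Both were low in the R4 white parts of bird A, at 110 and 93.3 CPM for g21074 and at 0 counts on both sides for g18186. The whole-feather range of g18186 was 3.17 to 12.8 CPM, and both of its R4 dark values in bird B were below it. In the right R4 white part of bird F, where the member score was among the highest, g18186 had 0.0565 CPM and g21074 had 151 CPM, at the lower end of its whole-feather range of 151 to 274 CPM. The last pair, g6424 and g4609 (r = 0.85), were low in the R4 white parts of birds A and G. In bird G g6424 had 2.32 and 2.94 CPM on the left and right, against 11.5 to 19.8 CPM over all whole feathers.

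**Figure D5:**
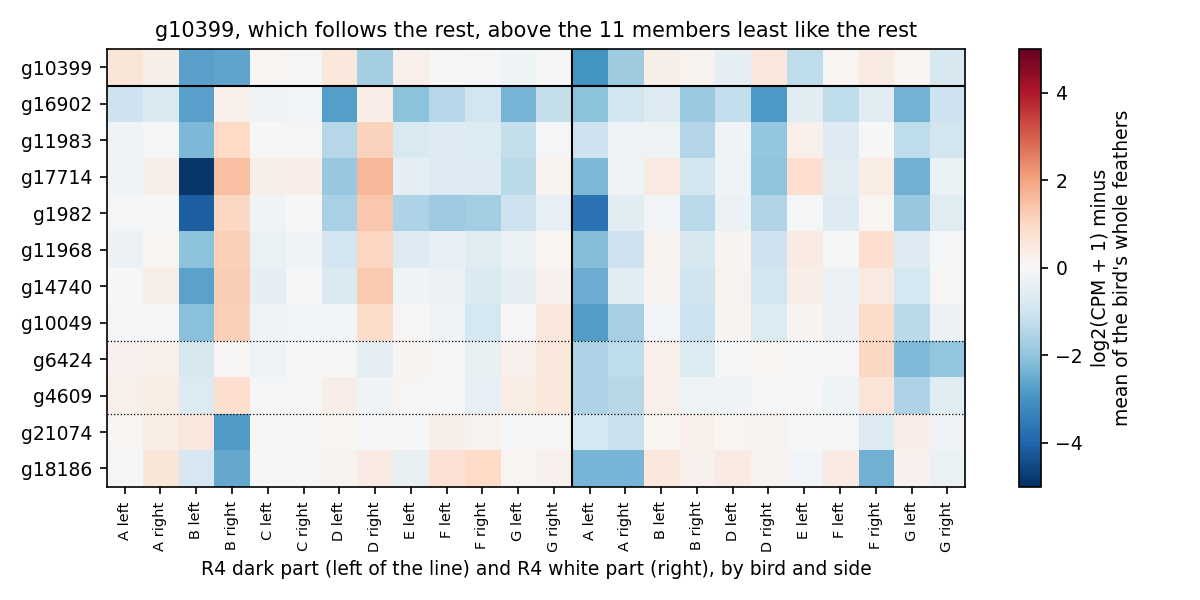
Log2(CPM + 1) minus the mean of the same bird's whole feathers in each R4 library for g10399, a member that follows the rest, and for the 11 members least correlated with the rest, with R4 dark libraries left and R4 white libraries right of the line. The block from g16902 to g10049 is high (red) in the right R4 dark parts of birds B and D, where g10399 is low (blue). Both g21074 and g18186 are lowest in the right R4 dark part of bird B. In the white parts of bird A and the right white part of bird F, g18186 is also low.

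Members with consecutive identifiers were close to each other. There were 23 such pairs, holding 43 members, with a median r of 0.97 over R4 libraries, against 0.89 for all member pairs, and against 0.33 for the 5239 consecutive pairs among the 9925 genes. Whether consecutive identifiers are neighbours on a chromosome, copies or pieces of 1 gene is not known here. The closest pair, g21438 and g21439 (r = 0.997), had 0.00 CPM each in the left R4 dark part of bird B, and their R4 ranges reached 252 and 149 CPM, against 2.30 to 165 and 1.34 to 102 CPM in whole feathers. Next came g22030 and g22031 (r = 0.993), in an unbroken run of 5 members from g22027 whose lowest pairwise r was 0.96. The third, g10398 and g10399 (r = 0.989), had 43.1 and 84.0 CPM in the left R4 dark part of bird B.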

How the data were processed

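Per the labels' protocols, stranded mRNA libraries were read at 75 bp. Reads were handled with STAR 2.7.2b, Trimmomatic 0.33, bcl2fastq and featureCounts (Subread 1.6.0), per the submitters' processing notes. Genome, annotation, filters and strand setting: not given in the sources used here. Raw counts were deposited per gene model by the authors for 48 libraries, with no normalization, and all columns were matched to labelled samples. The growth protocol gives 6 birds, while the series text and the labels give 7.

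The members, lists and tests were chosen with earlier results of these data known. CPM used library totals, and log2 values had 1 CPM added. For tests, left and right counts were summed per bird and group, filtered with filterByExpr, scaled by TMM and fitted with edgeR 4.0.16 in R 4.3.3 (robust quasi-likelihood, bird as block, 15844 genes). The bird pairs the profiles because they come from the same animal. Over all tested genes, same-bird deviations had a median r of 0.23 between R4 parts (-0.37 to 0.52) and 0.65 between R4 dark and R2. It was 0.51 between R4 white and R6 and 0.65 between R2 and R6. Over the members the median r was 0.11, 0.70, 0.51 and 0.74 in the same order. The p-values set a difference against how much group differences vary from bird to bird, estimated over all 4 groups. Scripts were tested on simulated data. Alternatives were no replicate block, RLE size factors, DESeq2 1.42.0, other filters and library sizes, single sides, left-out birds or profiles and other rule settings. Named genes were the 10 members with the largest SD difference, the 5 with the most negative r, those nearest each limit, called members, the 3 most and 3 least abundant and the 3 with the lowest and highest r in whole feathers.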

Additional observations from a re-analysis of the deposited data

Results flagged for a closer look

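Among 21 groups of birds in which the value farthest from the rest was tested for a gap, 3 had one. For independent groups of unselected genes, chance gives about 1 in 20 groups, or 1.05. Here the groups share libraries and the members were chosen for spread in R4, so this number is no measure for them. All 3 are values of R4 dark libraries, and they are given as a description. The member score of the summed left and right R4 dark counts of bird B was 3.08, and the next lowest of 7 birds had 4.96. The median member difference of R4 dark over R2 in bird B was -1.89, and the next of 6 birds had -0.04. This value and the first rest on the same libraries. The gap between left and right R4 dark libraries was 1.47 in bird D, and the next of 6 birds had 0.54.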

How the results depend on the processing

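The rule gave 284 to 294 members under other library totals, pseudocounts, ratio limits, bird sums or numbers of abundant genes, of which 258 to 292 were among the 292. Single sides gave 294 (left) and 283 (right), of which 252 and 216 were among the 292. Leaving out each bird gave 286 to 295, of which 236 to 279 were among the 292, the fewest without bird B. Without the R4 dark libraries of bird B there were 287, of which 246 were. The rule took the same number of ranked genes in all these settings, which favours a similar number of members. The overlap with the 292 therefore says more than that number. Taking 150 or 600 ranked genes gave 147 and 580. For R4 parts over whole feathers, right feathers alone gave 0 calls among members and leaving out each bird 0 to 1. For the dark over the white part, DESeq2 gave 2 calls, the fit without bird B's R4 dark counts gave 24, and leaving out each bird gave 0 to 43, the highest without bird B. For R4 dark over R2, DESeq2 gave 1 call. For R4 white over R6, the fits with no replicate block, with no filter on low counts and with left or right feathers alone each gave 0 calls, and leaving out each bird gave 0 to 6. The paired fit, with the bird as replicate block, changed no other number of calls. Without birds A, D, F or G and in those 4 fits g16902 kept its sign but not its call (adjusted p of 0.0579 to 0.406). The median member fold kept its sign for R4 parts over whole feathers and for R4 white over R6 in all alternatives run, but came to -0.11 without bird B's R4 dark counts for the first and to -0.09 in right feathers alone for the second. It turned for the other contrasts with R4. The causes were not tested. The contrasts rest on 5 or 6 birds holding both sides, with an SD between birds of 0.42 to 1.30 log2 units in the members' median.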
